A study of Mus musculus with 4 samples.

Results

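Skeletal muscle holds its ATP level through reactions that move phosphate between a few small molecules, and 5 genes of that buffer were followed here through the microRNAs (miRNAs) bound to their transcripts: Ckm (muscle creatine kinase), Ckmt2 (sarcomeric mitochondrial creatine kinase), Ak1 (adenylate kinase 1), Ampd1 (muscle AMP deaminase) and Mb (myoglobin). Every listed site on the strand of these genes was taken, for every miRNA, from the RefSeq span of each gene in the GRCm38 (mm10) mouse assembly. All 5 genes had sites, out of 7812 genes with a site in either library. They held 674 of 93468 site entries and 1.09% of the reads in the control library, and 677 of 100897 entries and 1.29% of the reads in the mimic library. An entry is 1 miRNA at 1 peak with its number of chimeric reads, and no entry lay antisense to any of the 5 genes.

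The muscles were plantaris from male C57BL/6J mice aged 5 months, taken after 10 days of mechanical overload (MOV), an operation in which part of the gastrocnemius and soleus is removed and the plantaris grows. Both groups had received lentivirus in the muscle. The paper describes mice given a scramble control construct in the left plantaris (MOV control) and a construct for a miR-1 mimic in the right (MOV mimic). Construct and side of the body thus cannot be told apart. Whether both libraries came from 1 mouse is not clear from the sources. Each construct held a TurboGFP reporter and a CMV promoter, which is active in many cell types. Chimeric eCLIP, which immunoprecipitates Ago2, ligates each miRNA to the RNA it lies on and sequences the joined molecule, was run on 1 library per group. The methods describe a step that amplified with a miR-1 primer, and whether the listed reads, which cover 659 miRNA names, come from it is not clear from the sources, so that a share of miR-1a-3p in all reads may carry that step. With 1 library per group no difference between conditions could be tested. Every interval of reads, shares of reads and ratios below is a 95% interval for counting error only.

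The libraries held 232408 (control) and 259207 (mimic) chimeric reads at these names. miR-1a-3p, the miRNA of the mimic, took 11.8% of the control and 13.8% of the mimic reads. The genes listed for fast fibres had reads at 7 of 7 and took 7.01% (control) and 8.17% (mimic) of all reads. The 5 slow fibre genes took 0.0669% and 0.0655%. The fast list includes Acta1, skeletal alpha-actin, which is not particular to fast fibres and had 2377 and 2699 reads. Genes of other cell types were counted beside them. The 3 regenerating fibre genes summed to 534 and 322 reads, the 3 endothelial genes to 20.5 and 39.1, and the 2 erythroid genes to 16.8 and 22.8. The leukocyte genes summed to 30.6 and 49.6 reads, with Cd68 at 0 in both libraries. Adgre1, another of the 4 leukocyte genes listed, had no known strand and could not be counted. The 5 fibroblast genes took 1.80% and 1.59% of all reads. The scaled ratio, mimic over control reads divided by the ratio of the library totals (1.12), was 0.264 (0.187 to 0.372) for Myh3 and 0.649 (0.553 to 0.761) for Myh8, myosins of regenerating fibres, and 0.805 (0.742 to 0.872) for Col3a1 and 0.678 (0.515 to 0.876) for Dcn, genes of fibroblasts. The fast fibre genes differed in direction. Myh1 was at 1.60 (1.55 to 1.65), Actn3 at 1.55 and Tnnt3 at 1.41. Myh4 was at 0.700 (0.672 to 0.730) and Tnni2 at 0.887, while the intervals of Acta1 and Mylpf included 1. Of the slow fibre genes Myl2 was at 2.05 (1.09 to 3.89), and the intervals of the others included 1. Among endothelial genes Cdh5 was at 2.08 (1.01 to 4.75) and Kdr at 0.374 (0.0897 to 1.43), an interval that includes 1. For Pecam1, with 0 control and 9.66 mimic reads, the ratio has no value, and its interval began at 2.01. The intervals of the leukocyte genes with reads, Ptprc and Csf1r, and of the erythroid genes included 1. Their part in the values below was not tested. More miRNA on a transcript and more of the transcript cannot be told apart in these counts.

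Creatine kinases pass phosphate between ATP and creatine phosphate. Ckmt2 does so at the mitochondria, where ATP is made, and Ckm at the myofibrils, where it is spent. Adenylate kinase makes ATP and AMP from a pair of ADP molecules, AMP deaminase removes the AMP as IMP, and myoglobin stores oxygen for the mitochondria. A miRNA guides Ago2 mainly through its seed, bases 2 to 8, which pairs with the target. miR-1, miR-206 and miR-133 are the best known miRNAs of muscle, and miR-1 and miR-206 share a seed.

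The mature sequences of miRNAs that led the reads of these genes are shown because each gene was read mostly through a small set of seeds. They are the RefSeq entries for GRCm38.p6, with the seed in capitals.

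miR-206-3p: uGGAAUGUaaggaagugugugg
miR-133b-3p: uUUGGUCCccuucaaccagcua
miR-30a-5p: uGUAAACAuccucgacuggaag
miR-30c-5p: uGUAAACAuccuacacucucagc
miR-30e-5p: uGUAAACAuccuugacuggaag
miR-21a-5p: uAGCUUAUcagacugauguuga
miR-22-3p: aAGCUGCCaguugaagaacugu
let-7a-5p: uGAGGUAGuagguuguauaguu
miR-378b: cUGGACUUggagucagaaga

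The 3 miR-30 entries carry the same seed and differ only after it. miR-1a-3p, miR-133a-3p and miR-378a-3p also led reads at these genes and are named without a sequence. Below, names of 1 family were pooled as miR-1/miR-206, miR-133, miR-30, let-7 and so on. The miR-378 family was searched with the seed CUGGACU, and miR-378b, pooled with it by name, has UGGACUU at bases 2 to 8.

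The transcripts of Ckmt2, Mb and Ampd1 held letters opposite the seed of their leading family, and that of Ckm letters opposite the seed of miR-21a-5p, which led its most covered region. These are stretches in the longest GENCODE vM1 transcript of each gene, picked in view of the reads described below as letters that could pair. Capitals mark the complement of the whole seed at the first 3 genes, and the complement of bases 2 to 7 at Ampd1.

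Ckm, opposite the miR-21 seed, transcript bases 175 to 201: acccctgacctctacaATAAGCTtcgc
Ckmt2, opposite the miR-30 seed, transcript bases 118 to 144: cgaaatgcatctctgcTGTTTACtaca
Mb, opposite the miR-1/miR-206 seed, transcript bases 545 to 571: aagtcctgaagaagagACATTCCgggg
Ampd1, opposite miR-1/miR-206 bases 2 to 7 at transcript bases 331 to 336: aagactgttaatttgtcCATTCCacaa
Ampd1, opposite miR-1/miR-206 bases 2 to 7 at transcript bases 537 to 542: gaaatacatgcagaagtCATTCCagag

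All 5 stretches lie in coding sequence. Only the sense strand of the transcript was searched. Among transcripts within 10% of the same length, ATAAGCT occurred in 4.24% for Ckm, TGTTTAC in 9.55% for Ckmt2 and ACATTCC in 6.57% for Mb, and each occurred once in its gene. Ampd1 had no ACATTCC (13.9% of its length peers did) but 3 copies of the shorter CATTCC, which 45.7% of the peers held, the remaining copy being in the 5′ UTR. The 3 families with the most Ckm reads, miR-133, let-7 and miR-22, had no whole seed complement in its transcript, where CTACCTC (let-7) and GGCAGCT (miR-22) were each found 0 times, against 10.9% and 19.4% of its peers with a copy. GCAGCT, opposite miR-22 bases 2 to 7, occurred 2 times in Ckm and in 53.5% of the peers. The miR-133 complement GGACCAA was in no transcript of the 5 genes. Neither was GACCAA, opposite miR-133 bases 2 to 7, which 25.6% (Mb) to 45.9% (Ampd1) of their peers held. GGACCA, opposite miR-133 bases 3 to 8 instead, was present once in each of Ckm, Ckmt2, Ak1 and Mb. It occurred in 39.9%, 42.7%, 55.3% and 30.2% of their peers. These are matches of letters and no peak was placed on them, because the transcripts belong to an earlier assembly than the peak coordinates.

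Ckm was the most heavily covered of the 5 genes per length and Ckmt2 and Ak1 the least. At Ckm the control library had 1639 reads (1561 to 1720) and the mimic library 1975 (1889 to 2064), which placed it 11th of 6478 genes with reads and 10th of 6755. Mb had 475 (433 to 520) and 779 (725 to 836) reads, at places 40 and 25. Ampd1 had 238 (209 to 270) and 356 (320 to 395) reads, at places 80 and 56. Those 3 genes were thus among the 100 genes with the most reads in each library. Ak1 had 115 (94.9 to 138) and 119.9 (99.5 to 143) reads, at places 154 and 161. Ckmt2 had 78.0 (61.7 to 97.3) and 116 (95.9 to 139) reads, at places 261 and 168.

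Per kb of transcript the level of Ckm was 1158 (control) and 1396 (mimic) reads, that of Mb 430 and 705, and that of Ampd1 102 and 152. Ak1 stood at 55.3 and 57.5 reads per kb and Ckmt2 at 52.5 and 78.2. The order Ckm, Mb, Ampd1 was the same in both libraries, with intervals of the reads far apart. Ak1 and Ckmt2 changed places between the libraries and the intervals of their levels overlapped. Ckm alone supplied 64.4% of the reads of the 5 genes in the control and 59.0% in the mimic.

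**Figure D1:**
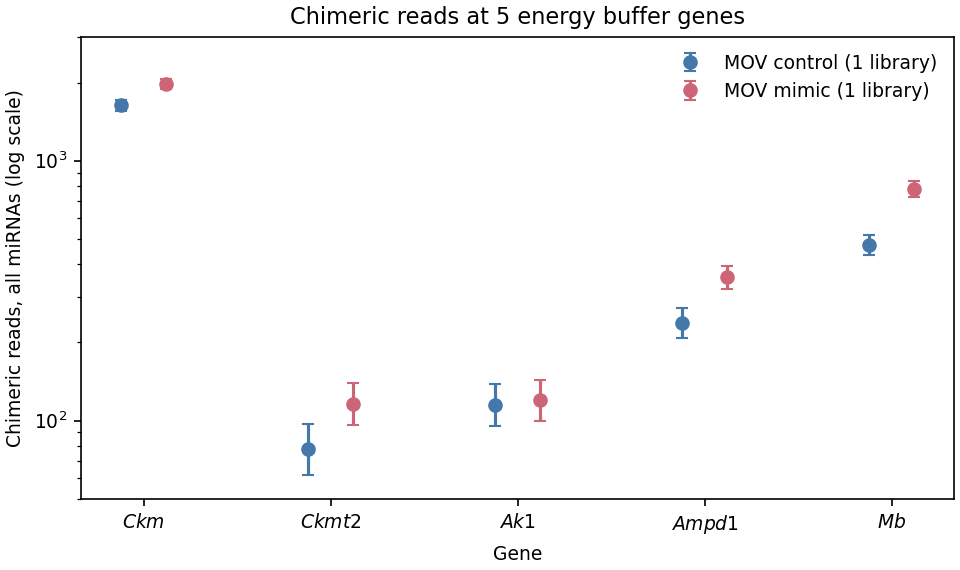
Chimeric reads of all miRNAs at each of the 5 genes on a log axis, with 1 point per library (blue MOV control, red MOV mimic) and bars for the 95% Poisson interval. Reads ran from 78.0 at Ckmt2 to 1639 at Ckm in the control and from 116 to 1975 in the mimic, and the intervals of the libraries overlap at Ckmt2 (just) and Ak1.

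Between the libraries the scaled ratio was 1.08 (1.01 to 1.15) for Ckm, 1.34 (0.992 to 1.80) for Ckmt2, 0.933 (0.718 to 1.22) for Ak1, 1.34 (1.13 to 1.59) for Ampd1 and 1.47 (1.31 to 1.65) for Mb. For Ckm, Ampd1 and Mb the counting interval lay above 1, as it did for 5.5% of 2729 genes with at least 20 reads over both libraries, and for 8.65% it lay below. The interval narrows as reads grow, and these 3 genes had more reads than most. None of the 5 genes passed 1.5-fold, that is 0 of 5 in either direction, whereas of the 2729 genes 13.3% passed it upward and 17.7% downward. The median over those genes was 0.950, with 0.451 and 2.0 at the 5th and 95th percentiles. A higher ratio than that of Mb was found at 375 of the 2729 genes. Without the most covered region of the gene, the ratio was 0.969 (0.895 to 1.05) for Ckm and 0.909 (0.638 to 1.30) for Ampd1. Neither ratio thus lay above 1 without that 1 region, and both intervals then included 1.

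The miRNAs on the 5 transcripts were different sets. Ampd1 was read almost wholly through miR-1/miR-206, Mb through miR-1/miR-206 with miR-133 and miR-378, Ak1 through miR-133, Ckmt2 through miR-30, and Ckm through miR-133 and let-7 with a long list of others. The number of names needed to reach 50% of the reads was 7 at Ckm, 3 at Ckmt2, 2 at Ak1, 1 at Ampd1 and 2 at Mb, the same in each library. Bray-Curtis distance between the name shares, which is 0 for equal and 1 for separate sets, was smallest between Ampd1 and Mb (0.445) and largest between Ckmt2 and Ampd1 (0.925).

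**Figure D2:**
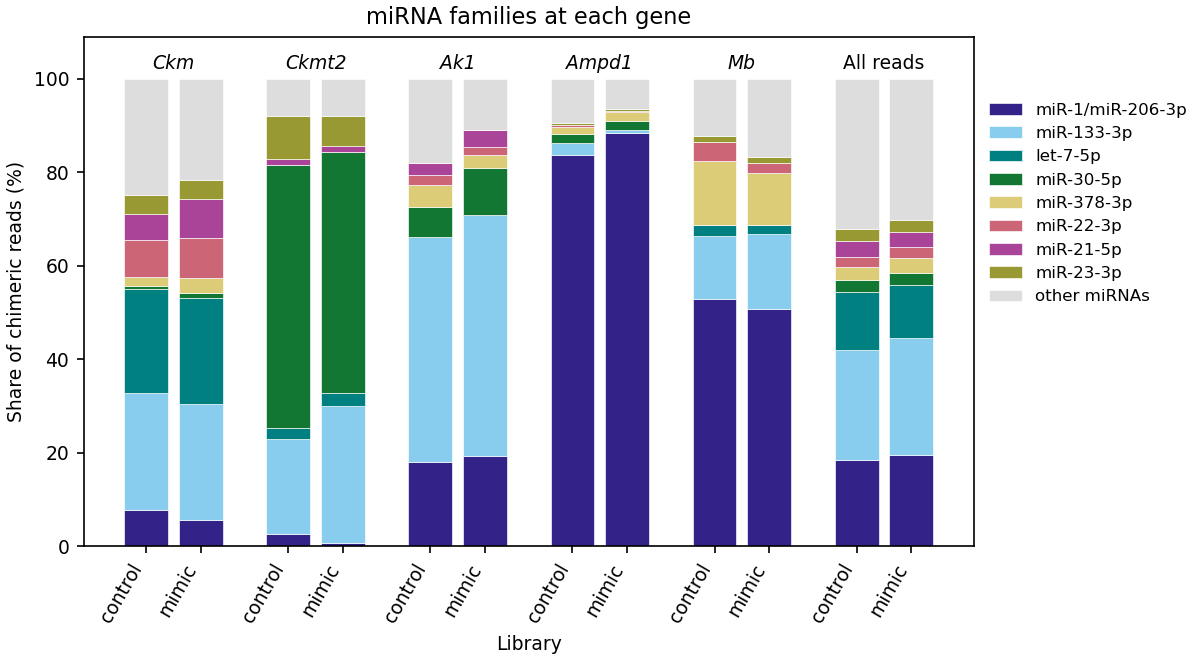
Share of chimeric reads (%) by miRNA family at each gene and over all reads, with the control and mimic libraries as neighbouring bars. The miR-1/miR-206 family makes up 83.7% and 88.4% of the Ampd1 bars, miR-30 makes up 56.3% and 51.5% of the Ckmt2 bars, and over all reads they take 18.4% and 19.4%, and 2.64% and 2.58%.

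Ckm, at chr7:19411094-19421583 on the plus strand (GRCm38), carried 118 miRNA names in the control and 122 in the mimic. miR-133a-3p led with 337 and 399 reads, 20.6% and 20.2% of the gene's total, near its share of all reads (18.4% and 20.2%). miR-22-3p followed with 127 and 168 reads. Its share at Ckm, 7.77% and 8.52%, was above its share of all reads, 2.21% and 2.35%. miR-21a-5p had 92.4 and 165 reads, miR-206-3p 102 and 71.1, and let-7a-5p 74.1 and 91.5. By family, let-7 took 22.3% and 22.8% against 12.4% and 11.3% of all reads, while miR-1/miR-206 took 7.78% and 5.57% against 18.4% and 19.4%. The seed of the mimic was thus a smaller part of the reads on Ckm than of the libraries as a whole. Gene by gene, Ckm was not unusual in this. Its share over both libraries was 6.57%, against a median of 8.66%, and 1513 of the 2729 genes had a larger share.

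Some rarer miRNAs were concentrated on Ckm. miR-149-5p gave 35.9 and 61.6 reads there, 2.19% and 3.12% of the gene's reads, against 0.146% and 0.143% of all reads. miR-128-3p gave 44.3 and 47.2 reads, 2.70% and 2.39%, against 0.296% and 0.275%. Between the libraries the scaled ratio was 1.54 (1.01 to 2.40) for miR-149-5p and 0.956 (0.621 to 1.48) for miR-128-3p. These 2 names were chosen after their values were seen.

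The Ckm peaks merged into 10 regions, of which 8 had peaks in both libraries. The most covered, chr7:19414122-19414305, held 454 control and 695 mimic reads, a scaled ratio of 1.37 (1.22 to 1.55). miR-21a-5p led there with 91.0 and 159 reads, ahead of miR-133a-3p with 77.9 and 105, so nearly all miR-21a-5p reads of Ckm lay in this region. The next, chr7:19416763-19416892, had 446 and 509 reads, with miR-133a-3p at 88.3 and 161, miR-206-3p at 82.4 and 44.0, and miR-16-5p at 65.1 and 39.5. Within that 130 nt region the total barely moved (1.02, 0.899 to 1.16) while its miRNAs went apart, miR-133a-3p at 1.63 (1.26 to 2.15) and miR-206-3p at 0.479 (0.326 to 0.702).

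Further Ckm regions were led by let-7, miR-23a-3p, miR-22-3p, miR-149-5p or, in chr7:19419454-19419491 (44.6 and 43.3 reads), again miR-133a-3p with 19.4 and 18.1. The region chr7:19415400-19415518, with 256 and 219 reads, was led by miR-23a-3p (34.6 and 41.8 reads) and let-7f-5p (38.1 and 18.0), and chr7:19414954-19415048, with 145 and 246 reads, by let-7 names. At the 3′ end, chr7:19421272-19421361 had 199 and 218 reads, of which miR-22-3p gave 95.6 and 113 and miR-133a-3p 72.8 and 75.8. Close to the 5′ end, chr7:19411113-19411146 had 17.6 and 37.2 reads, 12.7 and 21.9 of them from miR-149-5p.

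The region chr7:19420216-19420254 had 70.6 reads in the control, 52.8 of them from miR-133a-3p, and no peak in the mimic. The files list called peaks, so its level in the mimic has no value. Of the 534 control peaks with at least 50 reads, 6 (1.12%) had no peak of any miRNA over them in the mimic, and of the 602 such mimic peaks 17 (2.82%) had none in the control.

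**Figure D3:**
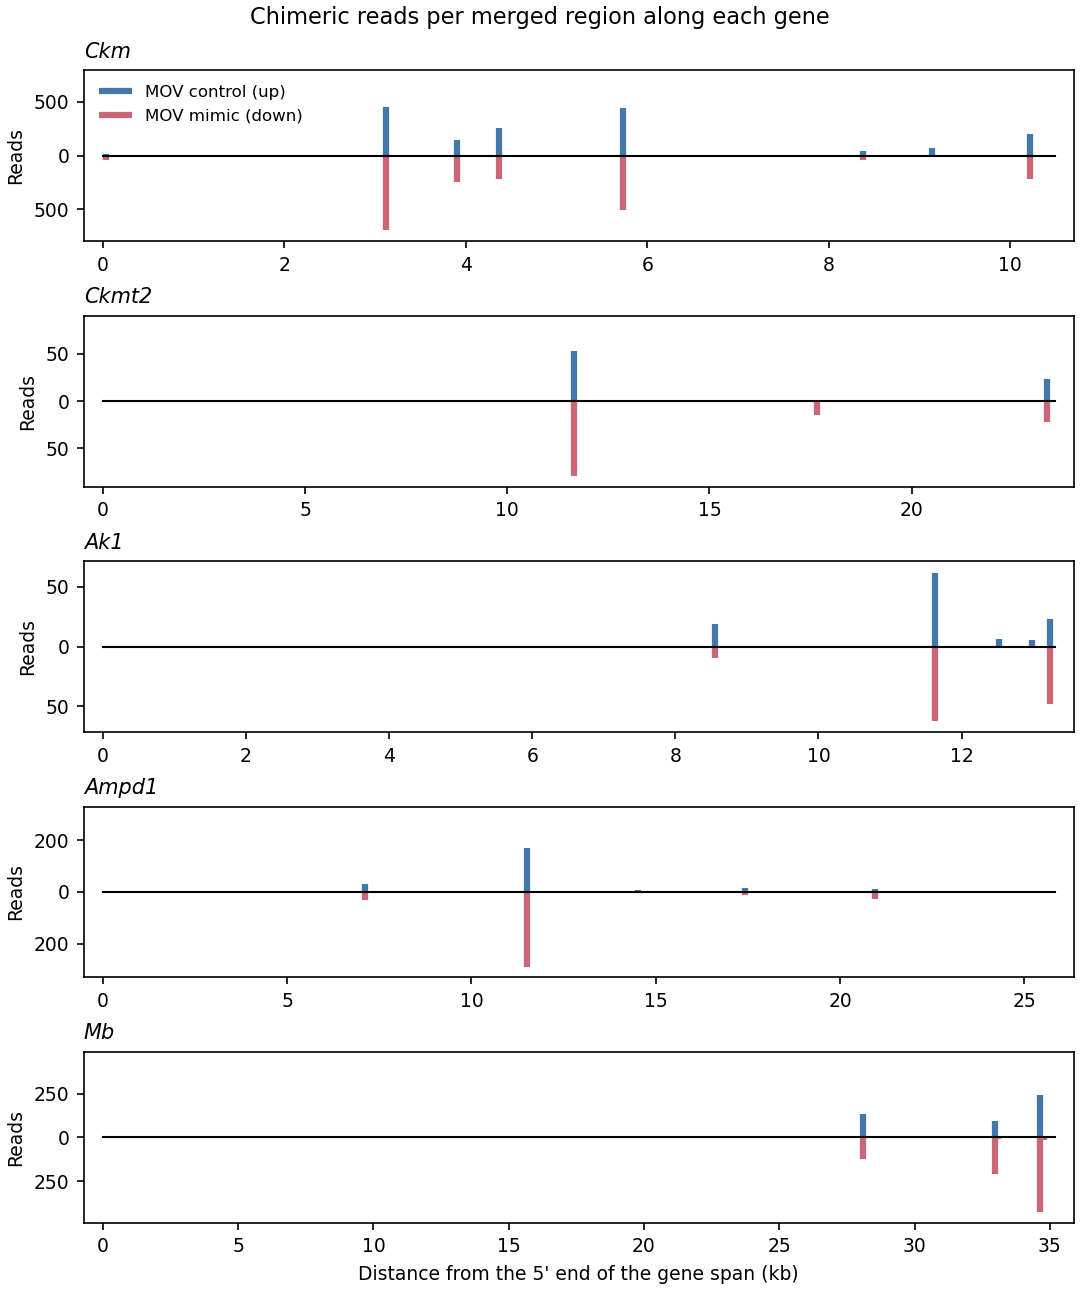
Chimeric reads in each merged region along the 5 genes, by distance from the 5′ end of the gene span in kb, with the control drawn upward in blue and the mimic downward in red and a separate read scale per gene. Ckm reads are spread over several regions, with 454 and 695 reads at the most covered, whereas 171 and 289 reads of Ampd1 lie in 1 region.

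Ckmt2, at chr13:91853386-91876923 on the minus strand, was led by miR-30. The family gave 43.9 control and 59.8 mimic reads, 56.3% (44.7 to 67.6) and 51.5% (42.3 to 61.1) of the gene's reads, against 2.64% and 2.58% of all reads. Of the 2729 genes 35 had a larger miR-30 share, and the median share was 0. The single names were miR-30a-5p with 16.6 and 14 reads, miR-30c-5p with 10.6 and 17.8, miR-30e-5p with 8.23 and 12.0, and miR-30b-5p with 5.88 and 8.98. As the sequences above show, names that share the seed could all pair with the one complement in the coding sequence.

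All of those reads lay in chr13:91865211-91865347, a 137 nt region with 53.4 and 78.9 reads in which the miR-30 names held the leading 4 places. miR-133a-3p had 12.0 and 29.5 reads at Ckmt2, with a scaled ratio of 2.21 (1.11 to 4.81), among the 3 highest pair ratios of the 5 genes. It led the region nearest the 3′ end, chr13:91853547-91853627 (23.2 and 22.3 reads), with 8.16 and 10.2 reads. miR-1/miR-206 gave 2.01 and 0.813 reads at Ckmt2, 2.57% and 0.699% of its total.

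Ak1, at chr2:32621758-32635058 on the plus strand, was led by miR-133 in both libraries. miR-133a-3p gave 47.5 and 54.4 reads, 41.3% and 45.4% of the gene's reads, and the miR-133 family 48.0% and 51.5%. Of the 2729 genes 254 had a larger miR-133 share over both libraries. miR-1a-3p gave 18.1 and 21.6 reads, and the miR-1/miR-206 share of 18.0% and 19.4% was close to that of all reads. miR-133b-3p had 7.80 and 7.39 reads, miR-30c-5p 1.48 and 8 and miR-378a-3p 5.65 and 3.40.

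The region with the most Ak1 reads, chr2:32633291-32633470, had 61.2 and 62.4, with miR-133a-3p at 24.8 and 34.6 and miR-1a-3p at 16.0 and 15.6. The last region, chr2:32634945-32635038, ends 20 nt before the end of the gene and had 23.2 and 48.1 reads, a scaled ratio of 1.86 (1.12 to 3.22). In it miR-30c-5p had 1 read in the control and 8 in the mimic (7.17, 0.962 to 318), too few to separate from counting error. Ak1 holds 1 complement of the miR-30 seed, at transcript bases 2001 to 2007 in the 3′ UTR of a 2085 nt transcript, a motif present in 12.1% of its length peers.

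Ampd1, at chr3:103073897-103099720 on the plus strand, was the gene of the 5 with the largest miR-1/miR-206 share. The family made up 83.7% (78.3 to 88.1) of its reads in the control and 88.4% (84.7 to 91.6) in the mimic, and 23 of the 2729 genes had a larger share over both libraries. miR-1a-3p had 163 (139 to 190) control and 284 (252 to 319) mimic reads, a scaled ratio of 1.56 (1.28 to 1.91). miR-206-3p had 35.9 and 31.1 reads, a ratio of 0.777 (0.462 to 1.28). With miR-1a-3p left out, the ratio of Ampd1 was 0.869, so the higher total in the mimic lay in that miRNA. miR-133a-3p, frequent elsewhere, had 5.09 and 1.15 reads, miR-378a-3p 2.06 and 5.48 and miR-29a-3p 3.79 and 2.87.

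Most Ampd1 reads, 171 and 289, came from the 117 nt region chr3:103085337-103085453. There miR-1a-3p had 138 and 256 reads, a scaled ratio of 1.66 (1.35 to 2.06), and miR-206-3p 28.0 and 24.9. The second region, chr3:103080969-103081042, had 30.2 reads in each library, with 14.2 and 15.4 from miR-1a-3p. At the second region the miR-1a-3p ratio was 0.971 (0.432 to 2.15), an interval that includes the value of the main region.

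Mb, at chr15:77015487-77050668 on the minus strand, had the largest scaled ratio of the 5 genes. miR-1a-3p went from 144 control reads (121 to 170) to 321 mimic reads (287 to 358), a scaled ratio of 2.0 (1.64 to 2.45). miR-206-3p went the other way, from 108 to 74.0 reads, a ratio of 0.613 (0.451 to 0.833). The family together held 53.0% and 50.6% of the gene's reads, so its share was nearly level. miR-1a-3p led miR-206-3p in both libraries, by 30.2% to 22.8% of the gene's reads in the control and by 41.2% to 9.49% in the mimic. miR-133a-3p had 55.2 and 109 reads (1.77, 1.27 to 2.50).

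miR-378 was the other feature of Mb. The family gave 13.7% and 11.1% of its reads against 2.78% and 3.26% of all reads, and 134 of the 2729 genes had a larger share. miR-378a-3p had 31.8 and 51.2 reads and miR-378b 24.3 and 25.8. miR-26a-5p, with 10.4 and 25.9 reads, had the largest ratio of any pair at the 5 genes, 2.23, over a wide interval of 1.09 to 5.42.

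The Mb regions differed in which of miR-1a-3p and miR-206-3p they held. In chr15:77015966-77016072, which lies 479 nt from the 3′ end of the gene and had 242 and 426 reads, miR-1a-3p had 142 and 311 reads and miR-206-3p 52.9 and 54.6. In chr15:77022530-77022630, with 135 and 121 reads, miR-206-3p led in the control with 47.9 reads and had 12.4 in the mimic (0.232, 0.108 to 0.428), while miR-378a-3p had 19.7 and 28.6 and miR-22-3p 18.7 and 16.1. Another region, chr15:77017617-77017774, had 92.9 and 211 reads and was led by miR-133a-3p with 43.2 and 97.3. The lower miR-206-3p count of Mb in the mimic thus lay at 1 of these regions, and the higher miR-1a-3p count at another.

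Set side by side, miR-1a-3p was higher and miR-206-3p lower in the mimic at Ckm, Ampd1 and Mb. The number of miR-1a-3p reads per miR-206-3p read went from 0.246 in the control to 0.548 in the mimic at Ckm, from 4.53 to 9.12 at Ampd1 and from 1.33 to 4.34 at Mb. Over all reads it went from 1.80 to 2.48. Both miRNAs had at least 20 reads at 110 genes, and at 90 of them the miR-1a-3p ratio was above the miR-206-3p ratio, so the 3 genes were not unusual in this. The scaled ratio of all miR-1a-3p reads was 1.17 and that of all miR-206-3p reads 0.849. Of 284 genes with miR-1a-3p, 22 had a higher ratio than Mb, 61 than Ampd1, 85 than Ckm (1.39, 0.825 to 2.41) and 154 than Ak1 (1.07, 0.561 to 2.17). Of 157 genes with miR-206-3p, 32 had a lower ratio than Ckm, 31 than Mb and 64 than Ampd1. Any part of the miR-1 primer step and of sorting reads between these related names was not tested.

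Over all miRNAs, 44 pairs of a gene and a miRNA had at least 20 reads in the libraries together. Of these 12 passed 1.5-fold upward and 5 downward, against 16.9% and 17.5% of 2087 such pairs over all genes, and the median ratio was 1.11 against 0.987. The 12 pairs fell on Ckm (5 of its 28), Mb (4 of 8), Ckmt2 (2 of 4) and Ampd1 (1 of 2), and the 5 on Ckm (4) and Mb (1). The counting interval lay above 1 for 7 of the 44 pairs and below 1 for 4, against 8.58% and 8.82% of the 2087 pairs. The lowest ratios were those of Ckm with miR-24-3p (32.6 and 18.8 reads, 0.518), miR-16-5p (65.8 and 40.5, 0.553) and miR-29b-3p (23.0 and 15.6, 0.607). miR-21a-5p at Ckm was higher in the mimic (1.60, 1.24 to 2.10), although the miR-21a-5p reads of the whole library were level (0.981).

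**Figure D4:**
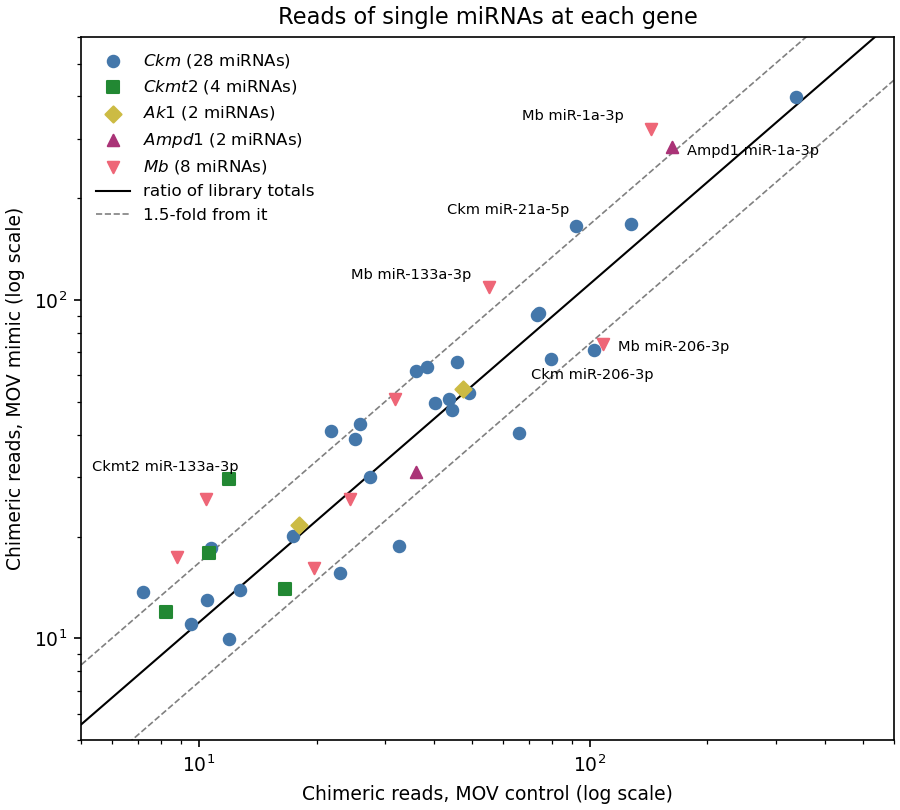
Chimeric reads of each of the 44 gene and miRNA pairs in the control (x) and the mimic (y), both on log axes, with 1 symbol per gene. The solid line marks the ratio of the library totals, 1.12, and the dashed lines 1.5-fold from it; miR-1a-3p at Mb and Ampd1 lies above the upper dashed line and miR-206-3p at Mb and Ckm below the lower one.

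Pooled over the 5 genes, sites recurred between the libraries more often than sites in general, and the gap lay in entries of few reads. Counted from the control, the gap was small at Ampd1. Of the 674 control entries, 59.2% (55.4 to 62.9) were overlapped in the mimic by an entry of the same miRNA, against 35.5% of all entries. Entries of 1 peak share its coordinates, and the 674 lay in 33 peaks and the 677 mimic entries in 28. The intervals of the overlap treat entries as independent. They may therefore be too narrow, and they do not decide whether a gene differs from all entries. Ckm held 404 of the 674, with 61.9% overlapped, and Mb 122, with 68.0%. Ckmt2 was at 59.4% (40.6 to 76.3). The intervals of Ak1, at 45.5% (32.0 to 59.4), and Ampd1, at 36.1% (24.2 to 49.4), included 35.5%. Over the 5 genes, entries under 1 read were overlapped in 46.0% of cases, against 23.3% of all such entries. Those of at least 10 reads were overlapped in 98.0%, against 97.1%. Under 1 read the interval lay above 23.3% only at Ckm (44.7 to 57.8) and Mb (39.1 to 65.7), and Ampd1 was at 17.5% (7.34 to 32.8). Counted from the mimic, 52.7% of the entries of the 5 genes were overlapped, against 32.7% of all mimic entries. Of those with at least 10 reads it was 74 of 74, against 96.6%. From the mimic the interval included 32.7% at Ampd1 alone, with 45.8% (31.4 to 60.8). Merged over miRNAs there were 30 regions, 22 of them in both libraries, 5 in the control only and 3 in the mimic only. Some regions in 1 library were short stretches of less than 1 read. In the mimic these were 2 nt at Ckm (0.242 reads) and 4 nt at Ampd1 (0.308), and in the control 13 nt at Ampd1 (0.653). Regions were not counted over all genes, so these counts have no share to stand beside.

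The pathway was also followed through its other genes. Of 27 other genes of creatine, adenylate and oxygen buffering, 24 had reads, and together they gave 829 and 828 reads against 2545 and 3347 at the 5 genes. Of the 12 with at least 20 reads, 1 passed 1.5-fold upward and 3 downward, with a median ratio of 0.905. Over all 2729 genes 13.3% passed it upward and 17.7% downward. Prkaa2, a catalytic subunit of the AMP-activated kinase, was at 1.51 (0.953 to 2.48), while Prkaa1, its other catalytic subunit, was at 0.538 (0.234 to 1.23). Ampd2 and Ampd3, the AMP deaminases of other tissues, were at 0.293 (0.0971 to 0.786) and 0.623 (0.295 to 1.23). A single name, miR-5126, gave 90.2% of the Ampd2 reads.

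Slc25a4, the ADP/ATP carrier of the mitochondrial inner membrane in muscle, had the most reads of them with 444 and 407 (0.823, 0.717 to 0.942), and miR-133a-3p gave 64.9% of those. Slc6a8, the creatine transporter, had 65.6 and 92.5 reads (1.26, 0.912 to 1.76), of which miR-1/miR-206 made up 45.4%. Adssl1, which turns the IMP made by Ampd1 back towards AMP, had 40.0 and 33.4 reads (0.748, 0.452 to 1.20) and was led by miR-133a-3p with 53.0%. The voltage-dependent channels Vdac1 and Vdac2 stood at 0.847 and 0.963, and Gatm, which makes the precursor of creatine, at 1.11. Slc25a5 was at 1.21 and Prkag3 at 1.06. Ckmt1, Ak4 and Ak5, forms known mainly outside skeletal muscle, had no reads in either library.

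As other muscle sets, 10 of 12 genes of glycolysis and glycogen breakdown had enough reads, of which 0 passed 1.5-fold upward and 1 downward (median 0.881), and of the 8 sarcomeric myosin genes 3 passed upward and 0 downward (median 1.22). The shares over all 2729 genes were 13.3% upward and 17.7% downward. The median miR-1/miR-206 share was 7.97% in the glycolytic list and 14.9% in the myosin list, and 8.66% over all 2729 genes. At the 5 energy buffer genes it ran from 1.45% at Ckmt2 and 6.57% at Ckm through 18.7% at Ak1 to 51.5% at Mb and 86.5% at Ampd1.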

How the data were processed

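Per the labels, Ago2 chimeric eCLIP libraries of plantaris muscle were processed with UMI-tools 1.1.1, cutadapt 3.2, STAR 2.7.7a, Bowtie 1.2.3 and HOMER 4.11 on mm10. The methods name mm9 and the CLIPper peak caller, and coordinates here follow the labels. The authors deposited, for each library, peaks with a miRNA name and an estimated count of chimeric reads, of which 17.4% (control) and 16.7% (mimic) were whole numbers within 1e-09. How the fractions arose is not given in the sources used here. The 2 input libraries were not analysed here.

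Entries sharing at least 1 nt with a RefSeq GRCm38 gene span on its strand were summed per gene (Python 3.11.15, pandas 2.3.3, SciPy 1.17.1). Strand was known for 27025 genes from the RefSeq promoter table and for 8750 by name from GENCODE, and 14222 of 49997 had none and were left out. Another gene overlaps Ckm (A930016O22Rik) and Mb (Apol6) on the opposite strand. Intervals (exact Poisson, Clopper-Pearson and conditional binomial) used reads rounded to whole numbers. Ratios were scaled by library totals and described for genes or pairs with at least 20 reads over both libraries. Families were pooled by miRNA name, since 543 of 659 names matched a RefSeq mature sequence. Seed complements were searched in the longest GENCODE vM1 transcript of each gene. The scripts were tested on simulated data.

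The genes, lists and named items were chosen with earlier results of these data known. Named were, at each gene, the 5 miRNAs with the largest mean share and the 2 regions with the most reads, the 3 highest and 3 lowest ratios over pairs, the 3 genes nearest in miRNA shares, and list genes with at least 20 reads. Further regions and miRNAs in the text were chosen after their values were seen.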

Additional observations from a re-analysis of the deposited data

How the results depend on the processing

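Of 72 comparisons of a value with an alternative setting, 44 stayed within the interval of the value reported and 25 moved beyond it. The other 3 moved beyond it to the other side of 1. Within counting error, the ratio of Ak1 (0.933) also crossed 1, at 1.17 from entries of at least 3 reads and 1.04 unscaled. The scaled ratio of Ckm became 0.969 without its most covered region, and that of Ampd1 became 0.909 without its most covered region and 0.869 without miR-1a-3p. Unscaled, the ratio was 1.21 for Ckm and 1.32 for the 5 genes together (1.18 scaled). The ratio of the 5 genes was 1.03 without the most covered region of each and 1.10 without the leading miRNA of each, and that of Mb was 1.24 without miR-1a-3p. The share of the leading miRNA over both libraries depended on the unit. For miR-133a-3p at Ckm it was 20.4% of reads, 2.91% of entries, 22.95% from entries of at least 3 reads, 22.5% without the most covered region and 24.9% as a family. For miR-133a-3p at Ckmt2 it was 21.4%, 9.68% of entries and 44.6% without that region. At Ak1 it was 43.4%, 10.2% of entries and 62.2% from entries of at least 3 reads. For miR-1a-3p at Ampd1 it was 75.2%, 9.17% of entries, 85.0% from entries of at least 3 reads, 39.8% without that region and 86.5% as a family. For miR-1a-3p at Mb it was 37.0%, 3.44%, 43.3%, 2.01% and 51.5% in the same order. The overlap of 59.2% became 48.4% with 50% reciprocal overlap, 87.5% for entries of at least 3 reads, 52.7% from the mimic and 93.9% with any miRNA. Counting either strand, or giving each peak to the gene with the largest overlap, changed no ratio. Pooling by identical seed was run by family name. Shorter seed matches were counted as an alternative chosen after seeing the data.

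No paired analysis was possible because the groups hold a single library each. At the 5 genes 3 control and 4 mimic peaks were under 10 nt and held 11.8 and 16.1 reads. The intervals were widest at Ckmt2 (0.992 to 1.80) and Ak1 (0.718 to 1.22), which had the fewest reads of the 5 genes.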

Other observations

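Genes nearest to each of the 5 in their miRNA shares were sought among 168 genes with at least 100 reads in each library, by Bray-Curtis distance on the mean shares of both libraries. This is a description over 2 libraries of 1 assay. Ampd1 was nearest to Sh3bgr (0.151), Ldha (0.208), the lactate dehydrogenase of fast muscle, and Actn3 (0.208), the alpha-actinin of fast fibres, against a median distance of 0.808. Its distance to Sh3bgr was about that between its own control and mimic shares (0.154). Mb was nearest to Car3 (0.194), a carbonic anhydrase abundant in muscle, Tpm2 (0.233) and Mdh1 (0.263), with a median of 0.609 and 0.240 between its own libraries.

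Ckm was nearest to Acta1 (0.324), skeletal alpha-actin, Flnc (0.338) and Plec (0.394), with a median of 0.588 and 0.137 between its own libraries, so no gene came as near to it as its 2 libraries to each other. Ak1 was nearest to Atp5b (0.261), the beta subunit of the mitochondrial ATP synthase, Mybpc2 (0.263) and Emp1 (0.275). Ckmt2 had Actc1 (0.377), Synpo2 (0.383) and Mybpc1 (0.432) as its nearest genes, against 0.230 between its own libraries.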
